A study of Marchantia polymorpha with 78 samples.

Results

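The genes described here are 97 genes of the liverwort Marchantia polymorpha. They were higher in blue than in red light by a set limit after 3 h of exposure, and under that limit after 24 h. They were chosen from the authors' averaged TPM values (relative transcript abundance, scaled to gene length and to a fixed library sum). On the log2(TPM + 1) scale a gene was taken when blue minus red was 1 or more at 180 min and under 1 at 1440 min. Of the 19355 genes listed, 97 met that rule, and all 97 also passed the filter of at least 1 TPM in 3 or more libraries that left 13054 genes for testing. Of these, 24 carry a gene symbol and 73 are known here only by identifier. The rule sets no condition at 30 min, 60 min or 12 h. "3 h only" therefore means under the limit at 24 h, where 26 of the 97 had a difference above 0, against 49.9% of all tested genes. At 60 min 9 of the 97 (9.28%) were already higher in blue than in red light by a test in other libraries, against 0.123% of all tested genes.

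All libraries came from wild-type Tak-1, a male laboratory line, so the results describe 1 genotype. Gemmae, the clonal propagules of the liverwort, were cultured under unbroken white light (23 °C, 8 days) and then kept in darkness for 24 h. The plates were then given white light (50 to 60 µmol m⁻² s⁻¹), blue light with a peak at 430 nm (30 to 40), red light with a peak at 660 nm (80 to 90) or far-red light with a peak at 730 nm (30 to 40), or they stayed in darkness. Thalli, the flat plant bodies, were taken after 30 min, 60 min, 180 min, 12 h and 24 h, and once at time zero before any light, which gives 26 groups of 3 libraries. Each library pools 3 plants. Since the 3 biological replicates shared a plate, effects of plate and of treatment cannot be told apart, and p-values measure only the spread between these libraries. Blue and red light also differed in photon flux, and colour and flux cannot be told apart in any comparison of them.

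Plants read blue light through cryptochromes and phototropins, red and far-red light through phytochrome, and ultraviolet-B through UVR8. Much of their signalling runs through the COP1 ubiquitin ligase, which in darkness removes factors that switch on light-responsive genes. Flavonoids, which are made from phenylalanine, absorb ultraviolet and short-wave visible light, and their synthesis is a classic light response of land plants.

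The read depth of each library is unknown because TPM keeps no counts, and no counting interval is given. Between 11838 and 12262 genes per library reached 1 TPM, and within a group the libraries had correlations over the tested genes between 0.9881 and 0.9966 on the log2 scale (genes are not independent replicates). Of 154 genes of the male V chromosome 130 were above 0 TPM in at least 1 library and 32 reached 1 TPM in every library, and MpRBCS, which encodes the small subunit of the carbon-fixing enzyme Rubisco, lay between 63.8 and 318.8 TPM. At 60 min of darkness replicate 3 lay away from the other 2, and the counts at 60 min that use it are also given without it. In whole thalli, fewer cells of a type and less RNA per cell cannot be told apart.

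The values that chose the genes are given as a description, with no test. At 180 min blue minus red ran from 1.01 to 3.27 with a median of 1.27 on the log2 scale, against a median of −0.02 over all tested genes. At 24 h it ran from −1.64 to 0.98 with a median of −0.27, and 71 of the 97 were below 0. Just inside the limit at 180 min lay Mp1g23670 (1.007), Mp4g05970 (1.014) and Mp4g01270 (1.017), and just outside it Mp3g18960 (0.996), Mp1g22750 (0.995) and Mp4g18590 (0.985). In all 102 genes reached the limit at 180 min, and 5 of these were left out because they were still at 1 or more at 24 h: Mp8g12120, Mp4g11130, Mp3g01310, Mp7g12620 and the transcription factor gene MpERF10. The members nearest to that limit at 24 h were MpDOXC31 (0.98), Mp3g17100 (0.84) and MpCOP1 (0.76). For 95 of the 97, every blue library exceeded every red library at 180 min. The exceptions were Mp1g24810 and Mp2g20510, both near the detection limit: at 180 min of blue light Mp1g24810 was at 0, 5.06 and 0 TPM and Mp2g20510 at 0, 1.92 and 1.33 TPM, and both were at 0 in all 3 red libraries.

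**Figure D1:**
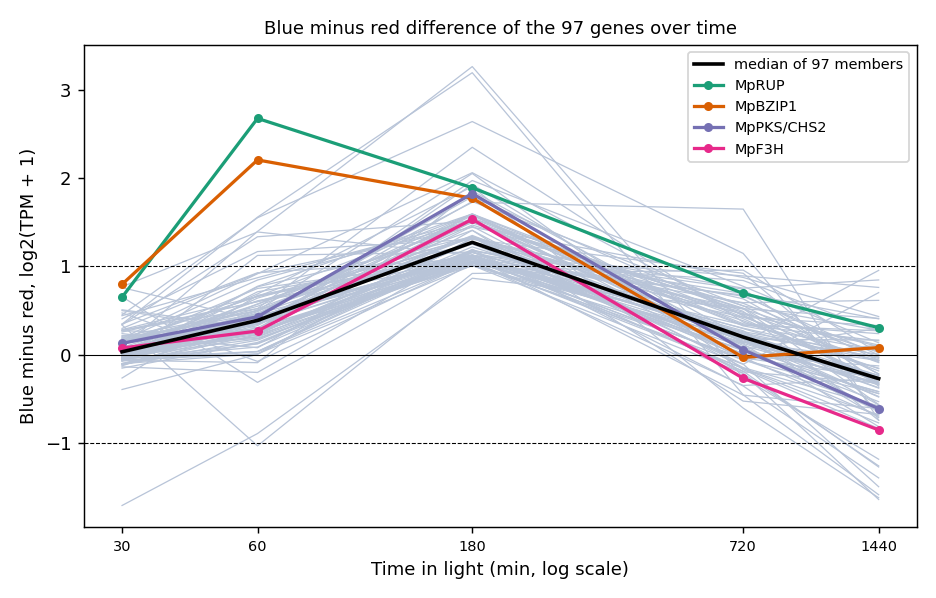
Blue minus red on the log2(TPM + 1) scale (vertical axis) against time in light (horizontal axis, log scale) for each of the 97 genes (thin lines), their median (black) and 4 named genes; dashed lines mark −1 and 1. The median is highest at 180 min, where the genes were chosen, and lies below 0 at 24 h, while MpRUP and MpBZIP1 have their largest difference at 60 min.

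At 60 min, in libraries that the choice did not use, the blue minus red difference was already visible in many of the genes. Limma, a linear model fitted over all 13054 genes with Benjamini-Hochberg adjustment, was used for every test, and a gene was called at an adjusted p under 0.05 and a log2 difference of at least 1 in size. Of the 97 genes 9 were called higher in blue than in red light at 60 min (9.28%) and 0 lower; over all tested genes 0.123% were called higher and 0.0306% lower. At an unadjusted p under 0.05, 75 members were higher and 1 lower (6.75% and 8.89% of all tested genes). Over all tested genes 16 were called higher, and the 9 members among them are MpRUP, MpBZIP1, MpCOP1, MpPPR_73 and the unnamed Mp2g02510, Mp3g21510, Mp4g12000, Mp6g04480 and Mp6g14520. By adjusted p alone, with no limit on size, 68 members were higher and 0 lower, against 2.69% and 2.22% of all tested genes. In 74 members (76.3%, against 10.7% of all tested genes) every blue library at 60 min exceeded every red one. The median difference of the 97 was 0.39, against −0.02 over all tested genes.

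At 30 min none of the 97 passed both limits in either direction by limma, where 0% of all tested genes were called higher and 0.046% lower; 27 members were higher and 4 lower at an unadjusted p under 0.05 (6.58% and 6.47% of all tested genes). By adjusted p alone 7 were higher and 1 lower, against 0.858% and 1.27% of all tested genes. At 12 h 2 members were called higher in blue than in red light and 0 lower, against 0.659% and 0.36% of all tested genes, and 47 members were higher and 10 lower at an unadjusted p under 0.05 (18.9% and 20.5%). By adjusted p alone 45 were higher and 8 lower at 12 h, against 15.1% and 15.7% of all tested genes. In 52 members (53.6%, against 19.8% of all tested genes) every blue library at 12 h exceeded every red one. The 2 called at 12 h were Mp5g14220 and Mp6g04480. Mp5g14220 was at 33.9, 27.1 and 30.0 TPM in blue light, against 9.68, 7.64 and 9.66 TPM in red light (log2 difference 1.65, SE 0.084, limma adjusted p = 4.2e-25). Its 3 blue libraries lay above all 3 red ones, and darkness at 12 h, at 25.9, 32.7 and 28.8 TPM, overlapped the blue libraries.

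Of the 4 light-signalling members, MpRUP and MpCOP1 were called higher in blue than in red light at 60 min, and MpDET1 and MpCRY-DASH were not. MpRUP encodes a repressor of the ultraviolet-B receptor UVR8. At 60 min it was at 80.8, 94.7 and 94.8 TPM in blue light, against 13.3, 13.7 and 12.6 TPM in red light (log2 difference 2.68, SE 0.093, limma adjusted p = 4.1e-33). The blue libraries lay far above the red ones with no overlap. White light at 60 min gave 70.2, 66.7 and 66.4 TPM, against 7.35, 7.15 and 9.74 TPM in darkness (log2 difference 2.93, SE 0.093, limma adjusted p = 6.3e-37). At 180 min blue light held it at 80.2, 80.4 and 84.5 TPM, against 19.3, 22.8 and 21.9 TPM in red light, and at 24 h at 20.7, 24.7 and 19.4 TPM, against 16.4, 18.3 and 16.9 TPM. The 24 h blue libraries were thus near the red ones again but still above each of them, and all exceeded darkness, where the gene stayed at 7.27, 8.57 and 7.30 TPM.

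MpBZIP1, a basic leucine zipper transcription factor gene, had a short response. At 60 min it was at 243, 253 and 273 TPM in blue light, against 56.4, 51.3 and 56.4 TPM in red light (log2 difference 2.21, SE 0.07, limma adjusted p = 3.7e-35). Darkness gave 43.4, 40.0 and 41.8 TPM, so red light lay a little above darkness and blue light far above both. At 180 min blue light gave 142, 132 and 132 TPM, white light 42.0, 45.7 and 48.4 TPM, red light 37.4, 38.1 and 40.8 TPM and darkness 45.6, 51.4 and 48.1 TPM. White light, at 203, 203 and 203 TPM at 60 min, was thus close to blue light at that time and overlapped darkness by 180 min, where it was not called (log2 difference −0.09, SE 0.07, limma adjusted p = 0.24). At 12 h blue light gave 38.2, 40.2 and 43.6 TPM, against 40.6, 42.5 and 41.4 TPM in red light, and the ranges overlapped.

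MpCOP1, the gene of the ubiquitin ligase itself, differed between blue and red light at 60 min and was below darkness in red light at 12 h. At 60 min it was at 219, 211 and 229 TPM in blue light, against 87.6, 81.6 and 80.4 TPM in red light (log2 difference 1.39, SE 0.067, limma adjusted p = 1e-25), with no overlap. At 12 h red light gave 34.9, 35.5 and 33.3 TPM, against 75.9, 76.5 and 83.6 TPM in darkness (log2 difference −1.16, SE 0.067, limma adjusted p = 2.1e-24). Blue light at 12 h gave 68.4, 58.8 and 68.3 TPM, against the same dark libraries (log2 difference −0.27, SE 0.067, limma adjusted p = 0.00026), which was not called. At 180 min the gene was at 135, 126 and 130.5 TPM in far-red light and 129, 124 and 129.8 TPM in blue light, and the ranges overlapped.

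MpDET1, whose relative in Arabidopsis represses light responses in darkness, was at 163, 165 and 173 TPM in blue light at 60 min, against 91.5, 87.6 and 84.1 TPM in red light (log2 difference 0.92, SE 0.08, limma adjusted p = 5.2e-14). Its blue libraries lay above all red ones, though the difference missed the size limit. Unlike MpBZIP1 it stayed near its 60 min level in blue light at 180 min, with 174, 179 and 173 TPM, against 59.5, 61.1 and 71.3 TPM in red light. MpCRY-DASH, a cryptochrome relative close to the light-driven DNA repair enzymes called photolyases, was not called at 60 min. It was then at 10.8, 12.9 and 15.4 TPM in blue light, against 9.88, 10.3 and 11.1 TPM in red light. The ranges overlapped, with a small difference towards blue light (log2 difference 0.29, SE 0.1, limma adjusted p = 0.099). At 180 min it was at 40.3, 42.1 and 42.5 TPM in blue light, against 11.6, 9.21 and 8.98 TPM in red light. White light at 180 min gave 23.6, 21.6 and 21.7 TPM, against 9.57, 9.58 and 10.5 TPM in darkness (log2 difference 1.10, SE 0.1, limma adjusted p = 4.3e-15).

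**Figure D2:**
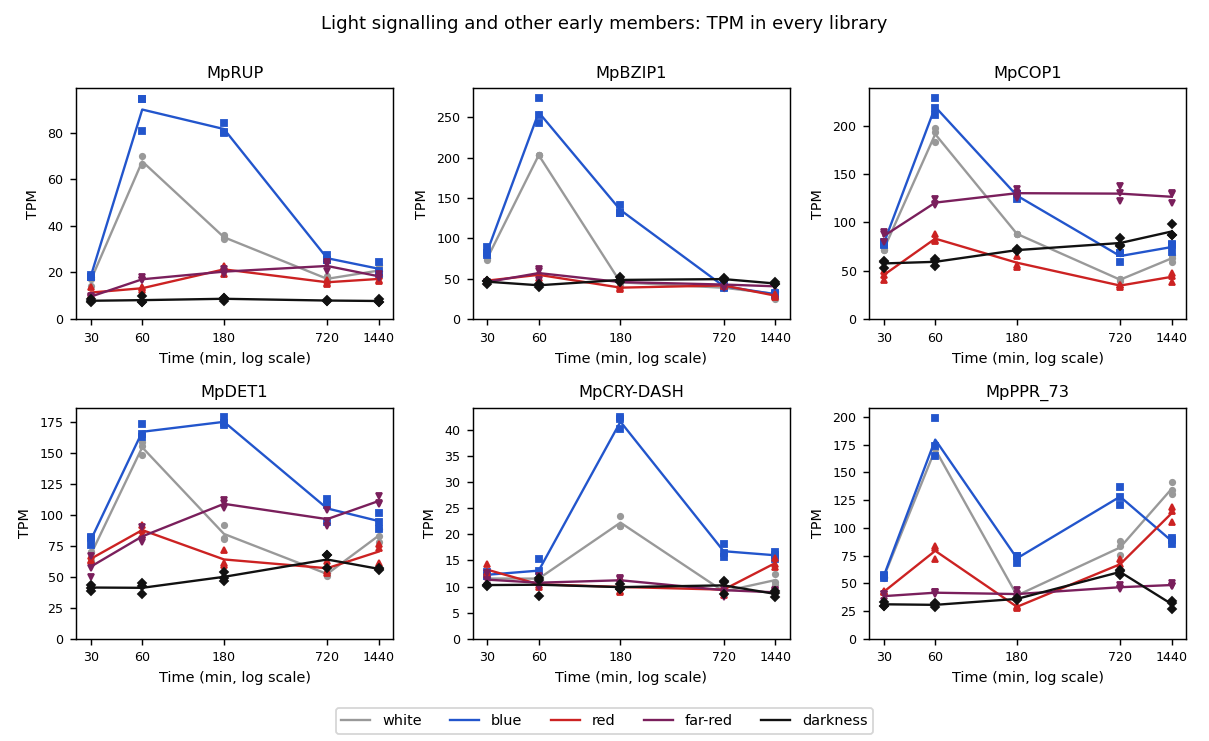
TPM (vertical axes, each from 0) against time (horizontal axes, log scale) in every library for 5 regulatory members and the pentatricopeptide repeat gene MpPPR_73; points are single libraries and lines join the means of white, blue, red and far-red light and darkness. White light lies near blue light at 60 min in MpBZIP1, MpCOP1, MpDET1 and MpPPR_73, and below it at 180 min in all 6 genes.

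Other photoreceptor and signalling genes were not among the 97. Of 14 tested genes of this list 4 are members. At 60 min 2 of the 14 were called higher in blue than in red light, MpRUP and MpCOP1, and 0 lower (0.123% and 0.0306% of all tested genes). At 12 h limma called 0 in either direction (0.659% and 0.36% of all tested genes). At an unadjusted p under 0.05, 8 were higher and 0 lower at 60 min (6.75% and 8.89% of all tested genes). At 12 h 10 were higher and 2 lower by that limit (18.9% and 20.5%). The median blue minus red difference of the 14 was 0.23 at 60 min and 0.48 at 12 h, against −0.02 and −0.01 over all tested genes. At 180 min the difference that chose the members was −0.21 for the ultraviolet-B receptor gene MpUVR8, 0.19 for the cryptochrome gene MpCRY, 0.51 for the phototropin gene MpPHOT and 0.57 for the phytochrome gene MpPHY. MpSPA1 and MpDDB1, whose products work with COP1 and DET1 in Arabidopsis, were at 0.04 and −0.08.

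Of 62 tested genes of phenylpropanoid and flavonoid synthesis 6 are members, and their names belong to different parts of the pathway. MpPAL1 encodes phenylalanine ammonia-lyase, which opens the phenylpropanoid pathway. MpPKS/CHS2 is a chalcone synthase family gene, and chalcone synthase makes the first flavonoid skeleton. MpCHIL2 is a chalcone isomerase-like gene, MpF3H encodes flavanone 3-hydroxylase, and MpDFR-like19 and MpLAR-like5 are named for their likeness to dihydroflavonol and leucoanthocyanidin reductases.

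MpPKS/CHS2 was at 872, 867 and 878 TPM in blue light at 180 min, against 245, 252 and 239.8 TPM in red light. MpF3H was at 1074, 1069 and 1059.7 TPM in blue light at that time, against 391, 359.9 and 353 TPM in red light. In both genes the blue libraries lay far above the red ones and above white light, which gave 301, 302 and 305 TPM for MpPKS/CHS2 and 391, 409.7 and 417 TPM for MpF3H. At 24 h the order was the other way round. MpPKS/CHS2 was then at 189, 184 and 197 TPM in blue light, against 287, 302 and 282 TPM in red light, and MpF3H at 167, 162 and 167 TPM in blue light, against 297, 296 and 307 TPM in red light. No library of one light reached the range of the other.

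At the times the choice did not use, limma called 0 of the 6 phenylpropanoid and flavonoid members between blue and red light at 30 min, 60 min or 12 h. At an unadjusted p under 0.05, 1 was higher and 1 lower at 30 min (6.58% and 6.47% of all tested genes). At 60 min 5 were higher and 0 lower (6.75% and 8.89%), and at 12 h 1 was higher and 2 were lower (18.9% and 20.5%). Their blue minus red differences at 60 min were 0.43 for MpPKS/CHS2, 0.37 for MpPAL1, 0.37 for MpLAR-like5, 0.27 for MpF3H, 0.27 for MpDFR-like19 and 0.09 for MpCHIL2. At 12 h they lay between −0.46 for MpDFR-like19 and 0.19 for MpLAR-like5. In the list of 62 limma called 0 genes higher and 1 lower at 60 min (MpPKS/CHS18), and 0 higher and 3 lower at 12 h. Over all tested genes 0.123% were called higher and 0.0306% lower at 60 min, and 0.659% and 0.36% at 12 h. At an unadjusted p under 0.05 the list had 7 higher and 20 lower at 60 min and 9 higher and 23 lower at 12 h. The list's median blue minus red difference was −0.06 at 60 min and −0.08 at 12 h, against −0.02 and −0.01 over all tested genes.

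Against darkness MpPKS/CHS2, MpF3H and MpDFR-like19 were called higher at 60 min in both blue and red light, by 2.61, 2.22 and 2.59 in blue and 2.18, 1.95 and 2.31 in red light. MpPKS/CHS2 was already at 113, 116 and 114 TPM after 30 min of blue light and at 106, 104 and 103 TPM after 30 min of red light, against 46.9, 39.8 and 38.1 TPM in darkness. Both lights lay above every dark library (log2 difference 1.44, SE 0.064, limma adjusted p = 1.7e-28 for blue, log2 difference 1.31, SE 0.064, limma adjusted p = 1.3e-26 for red), and both comparisons share the dark libraries. MpDFR-like19 had log2 difference 1.61, SE 0.098, limma adjusted p = 6.4e-22 in blue light at 30 min and log2 difference 1.67, SE 0.098, limma adjusted p = 1.2e-22 in red light. MpLAR-like5 was at 59.8, 63.5 and 67.0 TPM in blue light at 60 min and 47.3, 49.8 and 49.4 TPM in red light, against 30.8, 32.1 and 30.0 TPM in darkness. Both lights lay above all dark libraries, and blue light was called (log2 difference 1.01, SE 0.058, limma adjusted p = 5.6e-24), while red light missed the size limit (log2 difference 0.64, SE 0.058, limma adjusted p = 2e-15). The blue call was lost in 4 of the alternatives tried, with differences between 0.80 and 0.99. MpCHIL2 was at 37.1, 39.6 and 39.2 TPM in blue light at 60 min and 35.0, 36.4 and 37.6 TPM in red light, against 21.3, 22.4 and 19.4 TPM in darkness, differences of 0.85 and 0.76 that missed the size limit. At 12 h it was called in both, with log2 difference 2.21, SE 0.077, limma adjusted p = 2.7e-35 in blue light and log2 difference 2.16, SE 0.077, limma adjusted p = 6.6e-35 in red light.

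**Figure D3:**
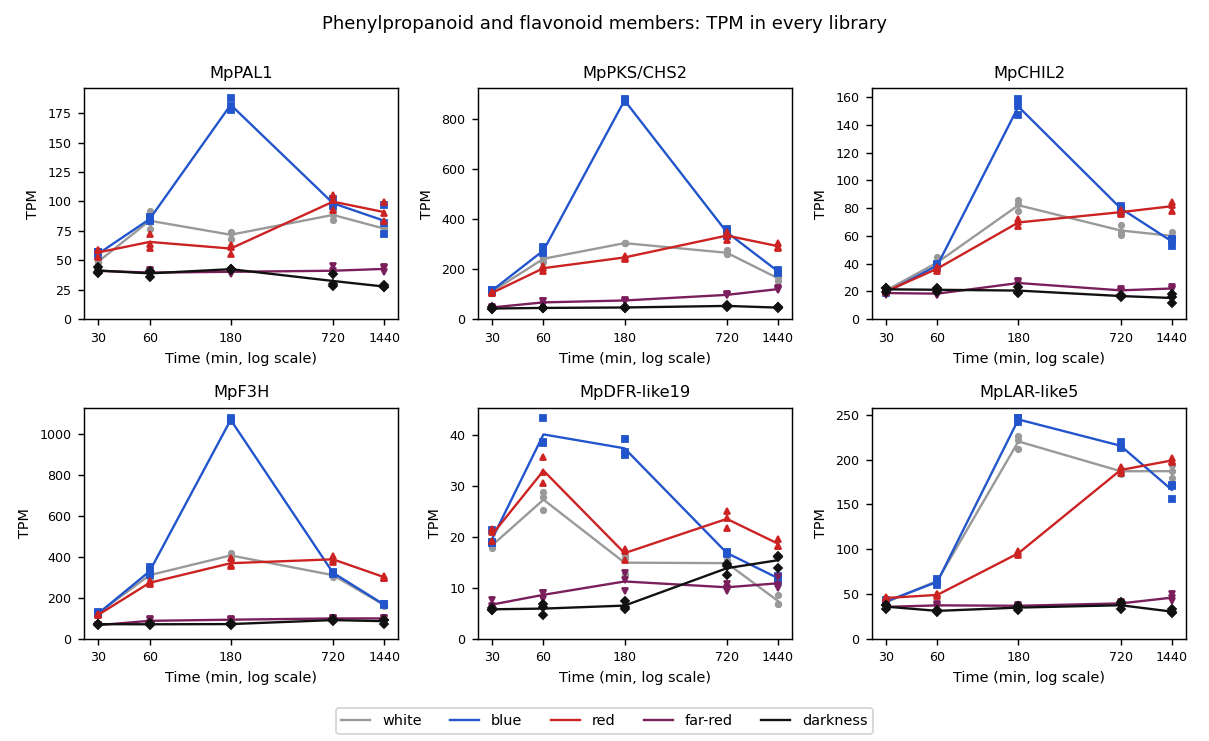
TPM (vertical axes, each from 0) against time (horizontal axes, log scale) in every library for the 6 phenylpropanoid and flavonoid members; points are single libraries and lines join the means of white, blue, red and far-red light and darkness. Blue light peaks at 180 min in all but MpDFR-like19, which is highest at 60 min, and red light lies above blue light at 24 h in all 6 means.

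White light contains both colours, and for 86 of the 97 genes its mean at 180 min lay between those of blue and red light. It was above blue light for 6 and at or below red light for 5, and the median position was 0.51 of the way from red to blue on the log2 scale. Among the flavonoid members MpLAR-like5 was near the blue end, with 227, 212 and 222 TPM in white light, 242, 247 and 246 TPM in blue light and 95.8, 97.5 and 92.9 TPM in red light. MpF3H and MpCHIL2 were near the red end, MpCHIL2 with 77.8, 85.9 and 82.6 TPM in white light, 159, 154 and 147 TPM in blue light and 69.7, 72.2 and 67.0 TPM in red light. These positions use the libraries that chose the genes and are a description.

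The comparison of white light with darkness uses no library of the choice. At 180 min 55 of the 97 genes were called higher (56.7%) and 5 lower (5.15%), where 10.6% of all tested genes were higher and 8.53% lower, and the median of the 97 was 1.21, against 0.05 over all tested genes. The 55 include 14 of the 24 genes with a symbol. MpPKS/CHS2 was at 301, 302 and 305 TPM in white light, against 43.5, 48.6 and 44.9 TPM in darkness (log2 difference 2.70, SE 0.064, limma adjusted p = 1.3e-44). MpCER1, whose relative in Arabidopsis makes the alkanes of the cuticular wax, was at 93.8, 95.1 and 101 TPM in white light, against 15.5, 15.8 and 15.3 TPM in darkness (log2 difference 2.56, SE 0.065, limma adjusted p = 6.1e-43). All white libraries of both genes lay several fold above all dark ones. The 5 called lower were MpGH19.3, MpABCG22, Mp1g10480, Mp7g03420 and Mp3g17100. In these, blue light exceeded red light at 180 min while white light lay below darkness.

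MpABCG22, a gene of the ABCG family of membrane transporters, shows that pattern. At 180 min it was at 6.37, 6.04 and 7.03 TPM in white light, against 18.4, 15.3 and 18.8 TPM in darkness (log2 difference −1.30, SE 0.12, limma adjusted p = 5.9e-15). Blue light at that time gave 13.2, 14.6 and 14.3 TPM, against 4.01, 4.90 and 3.18 TPM in red light. The blue libraries thus lay between the red libraries and darkness, below each dark one. Over all 97 genes, as a description, blue light at 180 min was at least 1 above darkness for 75, within 1 of it for 22 and at least 1 below it for 0. Red light was at least 1 above darkness for 30, within 1 of it for 59 and at least 1 below it for 8.

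**Figure D4:**
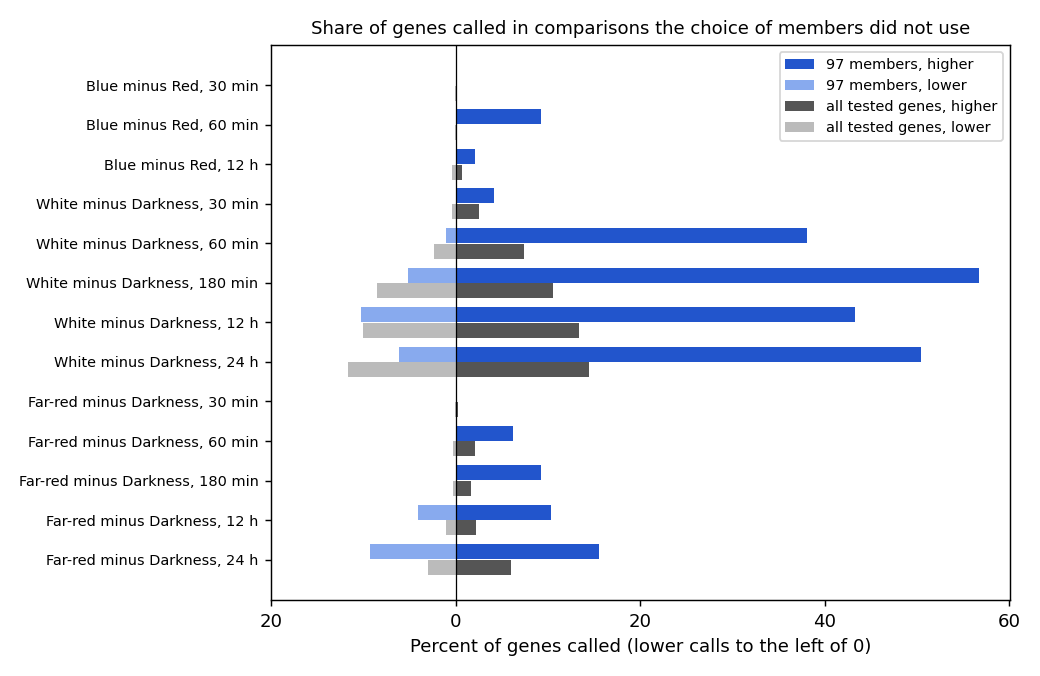
Percent of genes called by limma for the 97 genes (blue) and for all 13054 tested genes (grey). The horizontal axis has higher calls to the right and lower calls to the left of 0. Rows are comparisons of blue with red light and of white and far-red light with darkness, none with a library of the choice. The 97 genes reach 56.7% higher in white light at 180 min, where all tested genes are at 10.6%.

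Each other time has dark libraries of its own. In white light at 30 min 4 members were called higher and 0 lower (2.49% and 0.437% of all tested genes), with 42 higher and 18 lower at an unadjusted p under 0.05 (42% and 15.4%). At 60 min 37 were higher and 1 lower (7.41% and 2.33%), and without replicate 3 of darkness 39 and 1. At 12 h 42 were higher and 10 lower (13.4% and 10%), and at 24 h 49 were higher and 6 lower (14.5% and 11.7%). The time of the highest white mean was 180 min for 46 of the 97 (47.4%, against 16.1% of all tested genes) and 60 min for 23 (23.7%, against 14.6%).

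A direct test asked which members had a white light response, relative to darkness, that differed between 180 min and 24 h. The signed difference, 180 min less 24 h, was called above 0 for 13 members and below 0 for 7 (4.04% and 7.05% of all tested genes). The sign does not give the size of the response: of the 13, 8 had the larger response in size at 180 min and 5 at 24 h, among them MpGH19.3 and MpEXL9, and of the 7, 1 had it at 180 min and 6 at 24 h. MpF3H was at 391, 409.7 and 417 TPM in white light at 180 min and 162, 168 and 160.2 TPM at 24 h, against 65.8, 72.9 and 73.7 TPM and 72.4, 91.7 and 90.8 TPM in darkness at those times (log2 difference 1.56, SE 0.081, limma adjusted p = 1.1e-25). White light fell between the times while darkness changed little. MpDFR-like19 had log2 difference 2.06, SE 0.14, limma adjusted p = 3.1e-20. Its dark level itself was 5.84, 6.28 and 7.37 TPM at 180 min and 13.9, 16.3 and 16.0 TPM at 24 h, so both sides of the comparison moved. MpPPR_73, of the pentatricopeptide repeat family whose proteins bind organelle RNA, went the other way (log2 difference −1.97, SE 0.097, limma adjusted p = 1.1e-26).

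MpPPR_73 had 2 separate high times in blue light. It was at 165, 174 and 199 TPM in blue light at 60 min, against 83.9, 81.6 and 72.1 TPM in red light (log2 difference 1.17, SE 0.069, limma adjusted p = 3.1e-21). At 180 min it was at 68.3, 74.3 and 74.8 TPM in blue light, against 28.0, 28.3 and 29.8 TPM in red light, and at 12 h at 128, 120.2 and 137 TPM in blue light, against 71.6, 62.7 and 67.0 TPM in red light (log2 difference 0.92, SE 0.069, limma adjusted p = 1.2e-17). Blue libraries exceeded red ones at all 3 times, both lights were lower at 180 min than before and after, and at 24 h red light was the higher, at 115, 119 and 106 TPM, with blue light at 88.9, 90.5 and 84.9 TPM. MpPPR_16 of the same family was at 59.8, 65.1 and 58.0 TPM in blue light at 180 min, against 14.1, 12.2 and 15.4 TPM in red light, and its red libraries overlapped those of darkness at 13.9, 13.7 and 15.4 TPM.

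Other members with a symbol include genes of oxidation, sugar transfer and transport. MpDOXC2, MpDOXC14 and MpDOXC31 belong to the 2-oxoglutarate-dependent dioxygenases, MpCYP829D1 is a cytochrome P450 gene, and MpUGT9 belongs to the glycosyltransferases that attach sugars to small molecules. MpUGT9 was at 289.7, 307 and 302 TPM in blue light at 180 min, against 119, 130.3 and 120.3 TPM in red light, and at 24 h at 79.0, 83.7 and 83.1 TPM in blue light, against 129.9, 139.8 and 131 TPM in red light. The order of the 2 lights changed between these times with no overlap at either. MpDOXC2 was at 103, 105 and 102 TPM in white light at 180 min, against 21.2, 17.3 and 18.1 TPM in darkness (log2 difference 2.40, SE 0.11, limma adjusted p = 7.6e-30). MpDOXC14 was low, with 2.57, 2.09 and 2.53 TPM in blue light at 180 min, against 0.738, 0.632 and 0.647 TPM in red light, and was not called in any comparison tested. MpABCI7, an ABC transporter family gene, was at 57.4, 54.7 and 53.3 TPM in blue light at 180 min, against 20.9, 16.5 and 15.7 TPM in red light, and MpIDS4 at 250.0, 255 and 256 TPM in blue light, against 128, 111 and 117 TPM in red light. In both the red libraries exceeded darkness, where MpABCI7 was at 9.36, 9.25 and 10.02 TPM and MpIDS4 at 26.4, 29.5 and 27.9 TPM.

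The largest differences at 180 min belonged to genes without a symbol, Mp2g02510 (3.27), Mp6g14520 (3.20), Mp6g04480 (2.64) and Mp3g02630 (2.35), and no function is given for them in the sources used here. Mp6g14520 was at 23.8, 25.9 and 27.5 TPM in blue light at 60 min, against 7.23, 7.95 and 9.09 TPM in red light (log2 difference 1.56, SE 0.17, limma adjusted p = 2e-10). At 180 min it was at 288, 308 and 286 TPM in blue light, against 32.4, 32.5 and 28.6 TPM in red light, and darkness gave 2.87, 1.81 and 2.04 TPM. At 24 h red light was the higher, with 35.3, 29.8 and 33.6 TPM in blue light, against 105, 103 and 94.1 TPM in red light. Mp2g02510 did the same on a slower course: it was at 280.2, 319 and 316 TPM in blue light at 180 min, against 29.0, 33.3 and 30.2 TPM in red light, and at 24 h at 145, 141 and 143 TPM in blue light, against 329, 349 and 302 TPM in red light. Mp3g02630 was the one of the 4 that red light took below darkness at 180 min, with 61.7, 67.3 and 73.1 TPM in blue light, 13.6, 9.60 and 14.5 TPM in red light and 24.8, 25.04 and 26.5 TPM in darkness.

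By 24 h the red mean was above the blue mean in 71 of the 97. From 180 min to 24 h, as a description, the blue mean was lower at the later time for 85 of the 97 and the red mean was higher for 73, with both true of 61. The median change was −1.12 in blue light and 0.40 in red light on the log2 scale. Every red library exceeded every blue library at 24 h for 55 members. The shares of all tested genes were not counted for these numbers, which use libraries of the rule. Blue minus red at 24 h was above 0 for 26 of the 97, against 49.9% of all tested genes. The rule itself left out genes at 1 or more at that time. Choosing genes with blue above red at 180 min also favours a lower blue and a higher red value later. The counts of 85, 73, 61 and 55 are therefore no test of a change. The 8 members at −1 or less at 24 h were Mp2g02510, Mp6g14520, Mp8g05750 and 5 genes that lie close together on chromosome 4.

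The 5 chromosome 4 genes, Mp4g05960, Mp4g05970, Mp4g05990, Mp4g06020 and Mp4g06040, fall within a run of 9 consecutive identifiers, all tested. The other 4 of the run missed the limit at 180 min, with differences of 0.89, 0.64, 0.95 and 0.70, and all 9 were negative at 24 h, between −1.64 and −0.53. Mp4g05960 was at 257, 293 and 267 TPM in blue light at 180 min, against 114, 103 and 107 TPM in red light. At 12 h it was at 930.3, 874 and 1017 TPM in blue light, against 1044, 1043 and 949 TPM in red light, and the ranges overlapped (log2 difference −0.11, SE 0.097, limma adjusted p = 0.45). At 24 h it was at 354, 368 and 392 TPM in blue light, against 1019, 1058 and 1068 TPM in red light. Blue light was thus the higher at 180 min, overlapped red light at 12 h and was the lower at 24 h. In darkness Mp4g05960 was at 33.3, 31.3 and 30.8 TPM at 12 h, against a mean of 14.9 TPM at 180 min. Whether these genes are near-identical copies that share reads is not known here. Of the tested genes of chromosome 4, 18 of 1625 (1.11%) are members, against 0.743% of all tested genes; other members at most 3 identifiers apart are MpCER1 with Mp3g17100, Mp4g08900 with Mp4g08910, and Mp8g01080 with Mp8g01090.

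**Figure D5:**
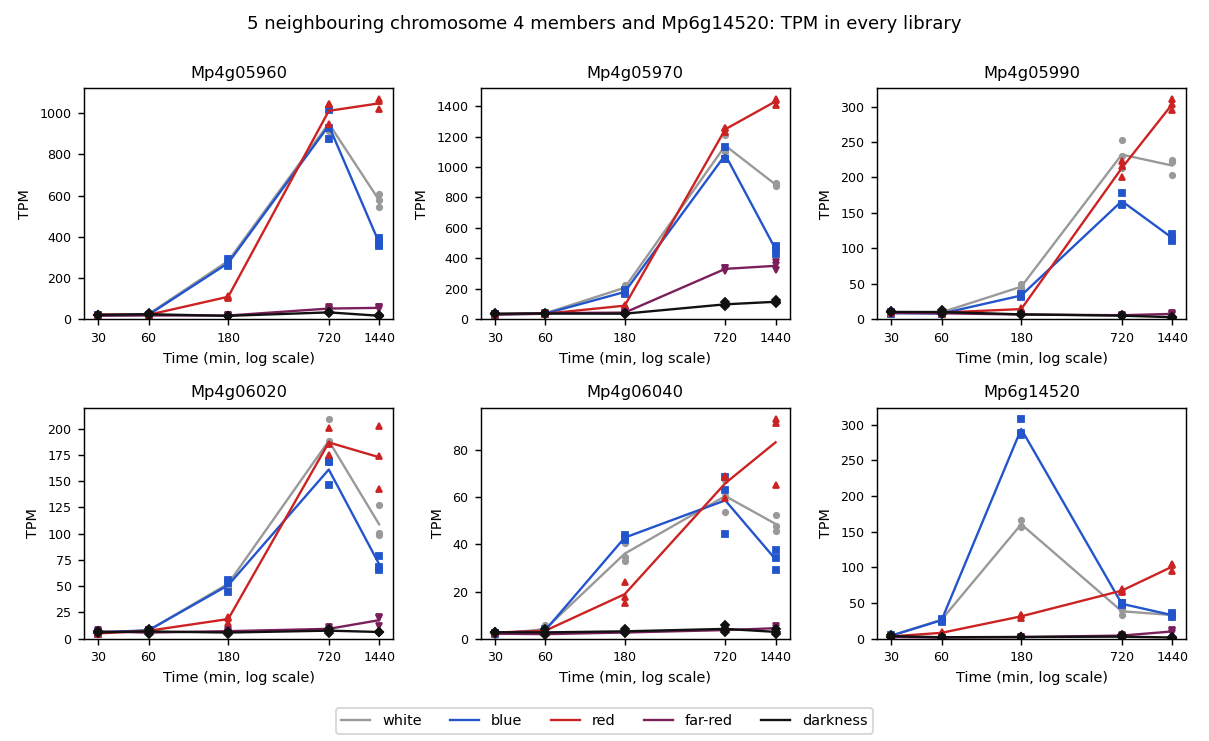
TPM (vertical axes, each from 0) against time (horizontal axes, log scale) in every library for the 5 neighbouring members of chromosome 4 and for Mp6g14520; points are single libraries and lines join the means of white, blue, red and far-red light and darkness. In the 5 neighbours blue exceeds red at 180 min and red exceeds blue at 24 h, and all 3 of white, blue and red light lie far above darkness from 12 h on.

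Far-red light, which the choice did not use either, gave fewer higher calls than white light at each time. That held for the 97 genes and for all tested genes. For far-red light against darkness at 30 min limma called 0 members higher and 0 lower (0.253% and 0.0383% of all tested genes). At an unadjusted p under 0.05, 22 were higher and 22 lower (31.9% and 14.8%). At 60 min 6 were higher and 0 lower (2.05% and 0.276%), with 41 higher and 19 lower at an unadjusted p under 0.05 (41.4% and 14.6%). The count of 6 was 3 with TMM factors (a rescaling of the libraries described below), 2 without replicate 1 of every group, 3 without replicate 1 of far-red light, 10 without replicate 3 of every group and 8 without replicate 3 of darkness. At 180 min 9 were higher and 0 lower (1.71% and 0.253%), with 41 higher and 13 lower at an unadjusted p under 0.05 (31.6% and 18.2%). At 12 h 10 were higher and 4 lower (2.21% and 1.04%), and at 24 h 15 were higher and 9 lower (5.98% and 2.98%). The median of the 97 at 180 min was 0.14, against 0.06 over all tested genes.

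The 9 called at 180 min in far-red light include 2 of the light-signalling members. MpRUP was at 20.2, 21.6 and 19.2 TPM in far-red light, against 9.14, 9.16 and 7.69 TPM in darkness (log2 difference 1.15, SE 0.093, limma adjusted p = 3.8e-16), and MpDET1 at 109.8, 112 and 105 TPM, against 49.4, 46.5 and 53.9 TPM (log2 difference 1.11, SE 0.08, limma adjusted p = 2e-18). All far-red libraries of both lay above all dark ones. Of the whole signalling list of 14, 3 were called higher at that time, with MpPHY besides these, and 0 lower (11 higher and 1 lower at an unadjusted p under 0.05). Of the 62 phenylpropanoid and flavonoid genes limma called 0 in either direction, with 25 higher and 12 lower at an unadjusted p under 0.05 and a median of 0.14. Over all tested genes 1.71% were called higher and 0.253% lower, with a median of 0.06. At an unadjusted p under 0.05 the shares of all tested genes were 31.6% and 18.2%. MpPKS/CHS2 was at 73.2, 72.8 and 74.9 TPM in far-red light, against 43.5, 48.6 and 44.9 TPM in darkness (log2 difference 0.68, SE 0.064, limma adjusted p = 8.7e-14).

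MpEXL9 and MpGH19.3, which is named for a glycoside hydrolase family that includes chitinases, were called higher in far-red light and lower in white light, though not at every time. MpEXL9 was at 49.3, 46.0 and 42.8 TPM in far-red light at 180 min, against 15.0, 15.3 and 17.7 TPM in darkness (log2 difference 1.47, SE 0.11, limma adjusted p = 7.1e-18), and at 24 h at 7.03, 9.34 and 8.17 TPM in white light, against 33.5, 32.9 and 36.1 TPM in darkness (log2 difference −1.94, SE 0.11, limma adjusted p = 6.3e-25). At 180 min its white libraries, at 22.2, 21.7 and 21.6 TPM, lay above all dark ones, a difference under the size limit (log2 difference 0.43, SE 0.11, limma adjusted p = 0.00037). MpGH19.3 was at 40.5, 64.9 and 37.3 TPM in far-red light at 180 min and 4.30, 4.95 and 3.87 TPM in white light, against 15.2, 10.03 and 16.2 TPM in darkness. Far-red libraries lay above and white ones below all dark libraries (log2 difference 1.70, SE 0.27, limma adjusted p = 4.1e-07 for far-red, log2 difference −1.44, SE 0.27, limma adjusted p = 2.9e-06 for white, with shared dark libraries). At 12 h MpGH19.3 was at 15.4, 13.7 and 20.2 TPM in far-red light, against 18.9, 18.9 and 21.1 TPM in darkness, with overlap, and was not called (log2 difference −0.26, SE 0.27, limma adjusted p = 0.43), nor at 24 h (log2 difference −0.32, SE 0.27, limma adjusted p = 0.3). Among the members the largest difference between far-red light and darkness was that of Mp4g19760 at 24 h, which was at 93.5, 78.8 and 101 TPM in far-red light, against 2.54, 3.31 and 2.89 TPM in darkness (log2 difference 4.55, SE 0.13, limma adjusted p = 5.9e-40).

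Blue and red light were each set against darkness at the times the choice did not use, with the same dark libraries in both. In blue light 5 members were higher (3 with TMM factors) and 0 lower at 30 min (4.5% and 0.613% of all tested genes), 40 and 1 at 60 min (8.56% and 2.11%), and 51 and 5 at 12 h (10.8% and 8.84%). In red light 5 were higher and 0 lower at 30 min (4.19% and 0.575%), 20 and 2 (4 lower with TMM factors) at 60 min (9.89% and 2.41%), and 44 and 10 at 12 h (13.2% and 11.1%). Without replicate 3 of darkness the counts at 60 min were 39 and 1 in blue light and 21 and 3 in red light. At an unadjusted p under 0.05 and 30 min, 45 members were higher and 22 lower in blue light (46.5% and 16.3% of all tested genes), and 36 were higher and 23 lower in red light (46.8% and 16.5%). At 12 h 40 members were higher in both lights and 5 lower in both. The share of all tested genes called in both lights was not counted. It can be at most the share in blue light, 10.8% higher and 8.84% lower. Scaling the libraries by TMM factors, which assume that most genes keep their level, lowered the median of all tested genes against darkness by 0.14 and 0.14 in white light, 0.18 and 0.18 in blue light and 0.18 and 0.19 in red light at 30 and 60 min. It lowered that in far-red light by 0.11 at 60 min and 0.10 at 24 h. With TMM factors the median of the 97 at 60 min was 0.55 in white, 0.56 in blue, 0.08 in red and −0.03 in far-red light.

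Darkness itself moved some members. Against time zero none of the 97 was called at 180 min by limma (0.115% of all tested genes were higher and 0.0919% lower), with 12 higher and 35 lower at an unadjusted p under 0.05 (32.7% and 13.3%). At 24 h 4 were higher and 6 lower (1.22% and 1.92% of all tested genes). MpEXL9 (log2 difference 1.42, SE 0.11, limma adjusted p = 1.4e-17) and MpGH19.3 (log2 difference 1.57, SE 0.27, limma adjusted p = 1.2e-06) were among those higher in 24 h of further darkness, and MpDOXC2 (log2 difference −1.63, SE 0.11, limma adjusted p = 1.2e-20) and MpDOXC31 (log2 difference −1.38, SE 0.19, limma adjusted p = 6.7e-09) among those lower. For these genes a difference between light and darkness at 24 h includes a change of the dark libraries.

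Lists of related genes were counted to set the members beside their families. Of 28 tested dioxygenase genes of the DOX family 3 are members, of 69 ABC transporter genes 2, of 71 pentatricopeptide repeat genes 2, of 124 expansin and cell wall genes 2 (MpEXL9 and MpGH19.3), and of 15 bZIP, 30 glycosyltransferase, 85 cytochrome P450 and 28 wax and lipid transfer genes 1 each. Lists of 39 MYB factors, 6 B-box factors, 62 reactive oxygen genes and 116 class III peroxidases held 0. Members are 0.743% of all tested genes and 0.957% of those with a symbol. A count of 0 or 1 in lists of these sizes therefore does not set a family apart. In white light at 180 min the dioxygenases had 7 called higher and 5 lower with a median of 0.47, the ABC transporters 17 and 6 with a median of 0.53, and the pentatricopeptide repeat genes 11 and 0 (43 higher and 11 lower at an unadjusted p under 0.05) with a median of 0.36. Over all tested genes 10.6% were called higher and 8.53% lower, with a median of 0.05. In the same comparison the flavonoid list had 17 higher and 8 lower with a median of 0.42, and the signalling list 2 higher and 2 lower with a median of 0.32. The B-box genes MpBBX2 and MpBBX3 were called higher in blue than in red light at 60 min, with log2 differences of 1.47 and 1.97, but were not members, since at 180 min their differences were −0.43 and −0.19.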

How the data were processed

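Poly(A) RNA of Marchantia polymorpha Tak-1 thalli was sequenced in paired 150-base reads, per the labels' protocols. The authors deposited TPM for 19355 genes in 78 libraries, with every column summing to 1000000, and a table of group means that equals the mean of the 3 replicates within 1e-06. The submitters' processing notes name STAR. Its version, the counting tool and the build are not given in the sources used. Names come from locus tags of a RefSeq table (assembly MpTak2_v7.1), which matched 17384 identifiers by their number, 3091 with a symbol. The files do not state their annotation version, so each symbol assumes that the number means the same gene in both. Among the 97 genes 95 matched.

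The rule was applied to the averaged table. The 13054 genes that reached 1 TPM in at least 3 libraries were fitted as log2(TPM + 1), pseudocount 1, with limma 3.58.1 in R 4.3.3, 1 mean per group over all 78 libraries and a prior variance that follows mean expression. Differences are on that scale, which understates changes of low genes. Comparisons with blue or red libraries of 180 min or 24 h, which the rule used, were given no test. On simulated data for white light against darkness at 180 min, the calls held 50 of 50 genes with a log2 change of 1.5, likewise at 2 and at 3, 0 of 50 at 0.7 (below the size limit), and 0 of 12854 unchanged genes. The changed genes were drawn from those above 5 TPM in darkness, with independent normal noise on the log2 scale. Recovery of lower genes was not simulated, and 7 members have a mean under 5 TPM.

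The members, gene lists and comparisons were chosen with earlier results of these data known. Named genes were to be members with a symbol by size of difference, expression and place near the limits. Since under 30 members have a symbol and the name table holds no product descriptions, the rule chose among the 24 with one. Genes named besides these were chosen after their values were seen. Alternatives were a pseudocount of 0.5, no filter, TMM factors computed from TPM, the replicate number as a block, each replicate or library left out, no trend and no limit on size.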

Additional observations from a re-analysis of the deposited data

Results flagged for a closer look

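The white light response relative to darkness differed between 180 min and 24 h for members in both directions, by limma's test of that difference. The signed difference, 180 min less 24 h, was called above 0 for 13 (13.4%) and below 0 for 7 (7.22%). Over all tested genes these shares were 4.04% and 7.05%, so the members' share below 0 was near that of all genes. For 5 of the 13, MpGH19.3 and MpEXL9 among them, the response was the larger in size at 24 h. Among members with a symbol the difference was 1.56 on the log2 scale for MpF3H, 1.94 for MpGH19.3, 2.37 for MpEXL9, 2.06 for MpDFR-like19, −1.17 for MpDOXC31 and −1.97 for MpPPR_73. The dark libraries of MpGH19.3, MpEXL9, MpDFR-like19 and MpDOXC31 changed between time zero and 24 h, and their part in these differences was not tested. The call of MpDOXC31 was lost in 2 of the alternatives tried, with differences of −0.93 and −0.99.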

How the results depend on the processing

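Read depth is unknown, so the precision of low values cannot be stated, and near 0 TPM single libraries decide a value (Mp1g24810, Mp2g20510). The number of genes that met the rule was 182 with a limit of 0.8 and 54 with one of 1.2, and 93 to 113 with 1 replicate of every group left out. It was 97 with the mean of log2 values, 113 with a pseudocount of 0.5 and 100 with TMM factors, of which 95, 96 and 97 were among the 97.

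With no limit on size, more members were called; the counts are of members higher and lower, with the shares of all tested genes in parentheses. In blue against red light they were 7 and 1 after 30 min (0.858% and 1.27%), 68 and 0 after 60 min (2.69% and 2.22%) and 45 and 8 after 12 h (15.1% and 15.7%). Against darkness they were, in white light, 40 and 16 after 30 min (39.5% and 13.7%), 66 and 11 after 60 min (43.4% and 22.3%), 75 and 11 after 180 min (39.4% and 33.8%), 62 and 25 after 12 h (42.4% and 35.1%) and 69 and 19 after 24 h (41.3% and 37.1%). In far-red light they were 19 and 19 after 30 min (28% and 11.7%), 41 and 17 after 60 min (38.3% and 12.4%), 36 and 12 after 180 min (28% and 15.5%), 29 and 30 after 12 h (33.7% and 20.1%) and 49 and 28 after 24 h (42.4% and 24%). In blue light they were 45 and 19 after 30 min (44.6% and 15%), 68 and 11 after 60 min (47.4% and 20.5%) and 75 and 15 after 12 h (39.9% and 35.3%). In red light they were 35 and 21 after 30 min (44.6% and 15.3%), 52 and 22 after 60 min (48.9% and 21.3%) and 62 and 20 after 12 h (41.7% and 36.6%). For the signed white difference, 180 min less 24 h, they were 46 and 24 (29.5% and 25.5%), and in darkness against time zero 9 and 26 after 180 min (28.2% and 10.2%) and 14 and 43 after 24 h (37.2% and 20.2%).

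With TMM factors 3 members were higher in far-red light at 60 min, 3 higher in blue light at 30 min, 1 lower in red light at 30 min and 4 lower in red light at 60 min, each against darkness. A pseudocount of 0.5 gave 1 lower in red light at 30 min. Leaving out replicates or single libraries gave between 0 and 1 higher and between 0 and 1 lower for blue against red light at 30 min, 2 to 10 higher for far-red light at 60 min, and 0 to 1 lower for red light at 30 min. Other counts stayed within 1.5 times under these alternatives, no filter and no trend.

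Same-numbered libraries did not deviate together (correlations between −0.37 and 0.34, median 0.002, above 0.1 in 108 of 975), so the numbers were not taken to pair the samples. With the replicate block no count of members changed (9 higher in blue than in red light at 60 min). There were 528 pairs of a named gene and a comparison, 140 of them called, with 8064 alternative values in all. Only values of the called pairs could reverse or lose a call, and their number is not given here. Of these 0 reversed a call and 47 lost one, in 18 pairs. The cause was not tested.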
